A study of Mus musculus with 12 samples.

Results

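The MHC class I antigen presentation genes were followed in oligodendrocytes sorted from mouse brain. The set held 10 genes, found by symbol among the 55376 symbols of the count table. It comprised the class I heavy chains H2-K1, H2-D1, H2-T23 and H2-Q7, the light chain B2m, the peptide transporter genes Tap1 and Tap2, the loading factor Tapbp, and the immunoproteasome subunits Psmb8 and Psmb9. All 10 were among the 17716 genes with at least 1 CPM (counts scaled to the size of the library) in at least 4 of the 12 samples, so all 10 were tested. The 4 heavy chains share stretches of sequence, and their separate values are read with that limit.

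RNA-Seq was done on live O1+ CD45- cells, gated as mature oligodendrocytes, from C57BL/6 mice at postnatal day 40, with 4 samples per genotype and 2 brains in each sample. The genotypes were wild-type (WT), Cnp-Cre Jab1fl/fl, in which Cre expressed from the oligodendrocyte and Schwann cell gene Cnp recombines floxed Jab1, and Cnp-Cre Jab1fl/fl p21CIP1-/-, which also lacks the cell cycle inhibitor p21CIP1 in all cells. The last 2 are called Jab1 mutant and double mutant, and they share the Cre and the floxed Jab1. The WT mice also serve as the controls of both mutants, so the comparisons with WT are not independent of each other. The comparisons ask how class I genes differ after loss of Jab1, a subunit of the COP9 signalosome, and whether they differ when p21CIP1 is lost as well.

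MHC class I molecules show peptides from inside the cell to CD8+ T cells. Proteasomes cut cytosolic proteins, the transporter made of Tap1 and Tap2 moves the peptides into the endoplasmic reticulum, tapasin, the product of Tapbp, helps load them, and a heavy chain paired with beta-2 microglobulin carries the peptide to the cell surface. Interferons raise most of these genes together, and the transcription factor Irf1 and the class I transactivator Nlrc5 act on them. Resting oligodendrocytes are known for low levels of class I, and microglia and endothelial cells are known to express more.

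In GENCODE release M21 (GRCm38), 9 of the 10 genes lie on chromosome 17 and B2m lies on chromosome 2 (122147686 to 122153083, forward strand). Along chromosome 17 the order is Tapbp (33915899 to 33929292, forward), H2-K1 (33996017 to 34000347, reverse), Psmb9 (34181987 to 34187764, reverse), Tap1 (34187553 to 34197225, forward), Psmb8 (34197721 to 34201454, forward), Tap2 (34203527 to 34216321, forward), H2-D1 (35262730 to 35267499, forward), H2-Q7 (35439155 to 35443773, forward) and H2-T23 (36029773 to 36032855, reverse). The 4 genes from Psmb9 to Tap2 stand side by side, with 496 bases between Tap1 and Psmb8 and 2073 bases between Psmb8 and Tap2. The 9 genes lie 4.82 to 6.93 Mb from Cdkn1a, the gene of p21CIP1, on the chromosome that carries the null allele of the double mutants. Any difference in sequence that travels with that allele was not tested.

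How far counts can be told apart between genes was read from their transcripts. Of the 50-base words in a gene's annotated transcripts, the share also present in another gene was 26.45% for H2-Q7, 23.18% for Tapbp, 14.49% for H2-T23, 12.77% for H2-D1 and 9.63% for H2-K1, and none of B2m was shared. With 100-base words the H2-Q7 share was 11.98% and the H2-K1 share 0.96%. Tapbp shared its words mainly with Gm19412, a gene annotated across 682 of its exon bases on the other strand. Psmb9 and Tap1 overlap by 212 exon bases on opposite strands, and Psmb8 and Tap2 overlap annotated genes on the other strand as well. Whether the counting used strand, and what it did with reads that match several genes, is not given in the sources used here, so H2-Q7 in particular is uncertain.

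Promoters of 9 of the 10 genes, all but Tap2, were found in RefSeq (GRCm38.p6), as 250 bases before to 50 bases after the RefSeq start. For Tapbp, Psmb8 and H2-D1 these windows begin at 33919228, 34197945 and 35262844, inside the GENCODE spans given above. Bases outside the windows were not searched. 3 motifs were searched on both strands: an interferon-response-like repeat (GAAANNGAA), the Y box bound by NF-Y (CCAAT), and a CRE-like X2 box (TGACGC), which with the Y box forms part of the element that Nlrc5 acts through. The repeat was present in 2 of 9 (B2m and H2-T23), beside 9.76% of all genes with a promoter. The Y box was present in 8 of 9, beside 41.06% of all genes, and Psmb8 was the one without it. The windows of Psmb9 and Tap1 overlap, with 225 bases between their starts. Their matches are the same Y box, which is counted for both genes. The X2 letters were present in H2-K1 and H2-D1, beside 8.37% of all genes, and in both genes a Y box in the reverse direction began 25 bases further on. Over the 80 bases around these boxes, H2-K1 and H2-D1 were identical at 68.

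The stretches below are shown because they hold the interferon-response-like repeat of B2m and the box arrangement of a heavy chain, and none touches an annotated exon. Capitals mark the matched motifs. The B2m stretch is chr2:122147508-122147596, forward strand, 179 to 91 bases before the start. The H2-K1 stretch is chr17:34000348-34000427, reverse strand, the 80 bases up to the start, with X2 and Y boxes in capitals. The H2-Q7 stretch is chr17:35439051-35439130, forward strand, 104 to 25 bases before the start, with a Y box as its only match. Before that box it reads tgacgt, which differs from the searched TGACGC in the last base and was not counted. A match is a run of letters and does not show that a factor binds there, and the lack of a match does not show that none binds.
B2m: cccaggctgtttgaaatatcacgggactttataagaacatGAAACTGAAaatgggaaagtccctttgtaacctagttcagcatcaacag
H2-K1: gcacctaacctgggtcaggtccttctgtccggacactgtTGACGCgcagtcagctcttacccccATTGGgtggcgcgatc
H2-Q7: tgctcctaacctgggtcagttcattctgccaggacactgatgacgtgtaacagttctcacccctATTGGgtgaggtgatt

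Total counts were 61485556 to 153495112 per sample, with a median of 103095817.5. Jab1 transcripts (Cops5) were at 46.3 to 133 CPM in WT and 45.0 to 89.0 CPM in Jab1 mutants and 44.2 to 90.4 CPM in double mutants, and the log2 fold change of Jab1 mutants against WT was -0.62 ± 0.36 (standard error, SE; edgeR adjusted p = 0.349). Cdkn1a, which encodes p21CIP1, was at 15.98 to 85.3 CPM in WT, 379 to 637 CPM in Jab1 mutants and 64.7 to 103 CPM in double mutants. Its log2 change in double mutants was 1.08 ± 0.48 against WT (edgeR adjusted p = 0.394) and -2.35 ± 0.32 against Jab1 mutants (edgeR adjusted p = 0.0916), so gene counts alone do not show either deletion. By qPCR on sorted oligodendrocytes, the study reported lower Cops5 in Jab1 mutants and no detectable Cdkn1a in double mutants. The sorted cells held mature oligodendrocyte transcripts in all 12 samples, with none of the 11 markers at 0. Markers of microglia, vessel and blood cells differed between WT and Jab1 mutants, and their values are given after the gene results. The 10 astrocyte markers summed to 5532 to 13346 CPM in WT, 3533 to 8650 CPM in Jab1 mutants and 4023 to 11120.5 CPM in double mutants, overlapping between genotypes. Summed markers of neurons, oligodendrocyte precursors and border macrophages overlapped between genotypes too.

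Levels can be compared between genes only per length, and CPM was therefore divided by the kilobases of annotated exon to give RPKM (mean ± SD, n = 4 per genotype). In WT the order was B2m at 165 ± 60.2 RPKM, H2-D1 at 59.3 ± 10.99, H2-K1 at 55.9 ± 11.7, Tapbp at 16.01 ± 3.32, H2-T23 at 10.1 ± 5.40, Tap2 at 8.16 ± 4.13, Tap1 at 2.94 ± 2.29, Psmb8 at 1.93 ± 1.13, Psmb9 at 1.89 ± 2.02 and H2-Q7 at 0.65 ± 0.92 RPKM. B2m lay above H2-D1 in every WT sample and H2-K1 above Tapbp, while all other neighbours in this order overlapped. In Jab1 mutants the levels ran B2m 1087, H2-D1 330, H2-K1 234, H2-T23 79.0, Tapbp 40.8, Psmb8 27.1, Psmb9 19.4, Tap2 14.4, Tap1 9.96 and H2-Q7 8.01 RPKM, and only B2m and H2-D1 were neighbours whose samples did not overlap. Double mutants had the same order as Jab1 mutants, from 1969 ± 2044 RPKM for B2m to 13.4 ± 15.01 for H2-Q7, with every neighbour overlapping. By their means, Psmb8 and Psmb9 stood below both transporter genes in WT and above them in both mutants. Within single samples both subunits stood above both transporter genes in 0 of 4 WT, 3 of 4 Jab1-mutant and 2 of 4 double-mutant samples, and below both in 1, 0 and 2.

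Class I genes were higher in Jab1-mutant than in WT cells. edgeR's quasi-likelihood test called 7 of the 10 higher and none lower at an adjusted p under 0.05 (H2-K1, H2-D1, H2-T23, B2m, Tapbp, Psmb8 and Psmb9), beside 5.19% of all genes tested that were called higher. At an unadjusted p under 0.05 the count was 9 of 10, beside 13.2% of all genes, and the samples of the genotypes did not overlap for 7 of 10, beside 9.90% of all genes. The median log2 fold change of the 10 genes was 2.60, and that of all 17716 genes was 0.02. H2-Q7 and Psmb9 were under 1 CPM in some WT samples and passed the filter through mutant samples. Psmb8, at 1.15 CPM in its lowest WT sample, stood near the limit. The counts and medians against WT, here and below, include these genes and are not independent of the filter for them. The largest called changes were those of Psmb8, at 14-fold, Psmb9, at 10.3-fold, and H2-T23, at 7.80-fold.

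**Figure D1:**
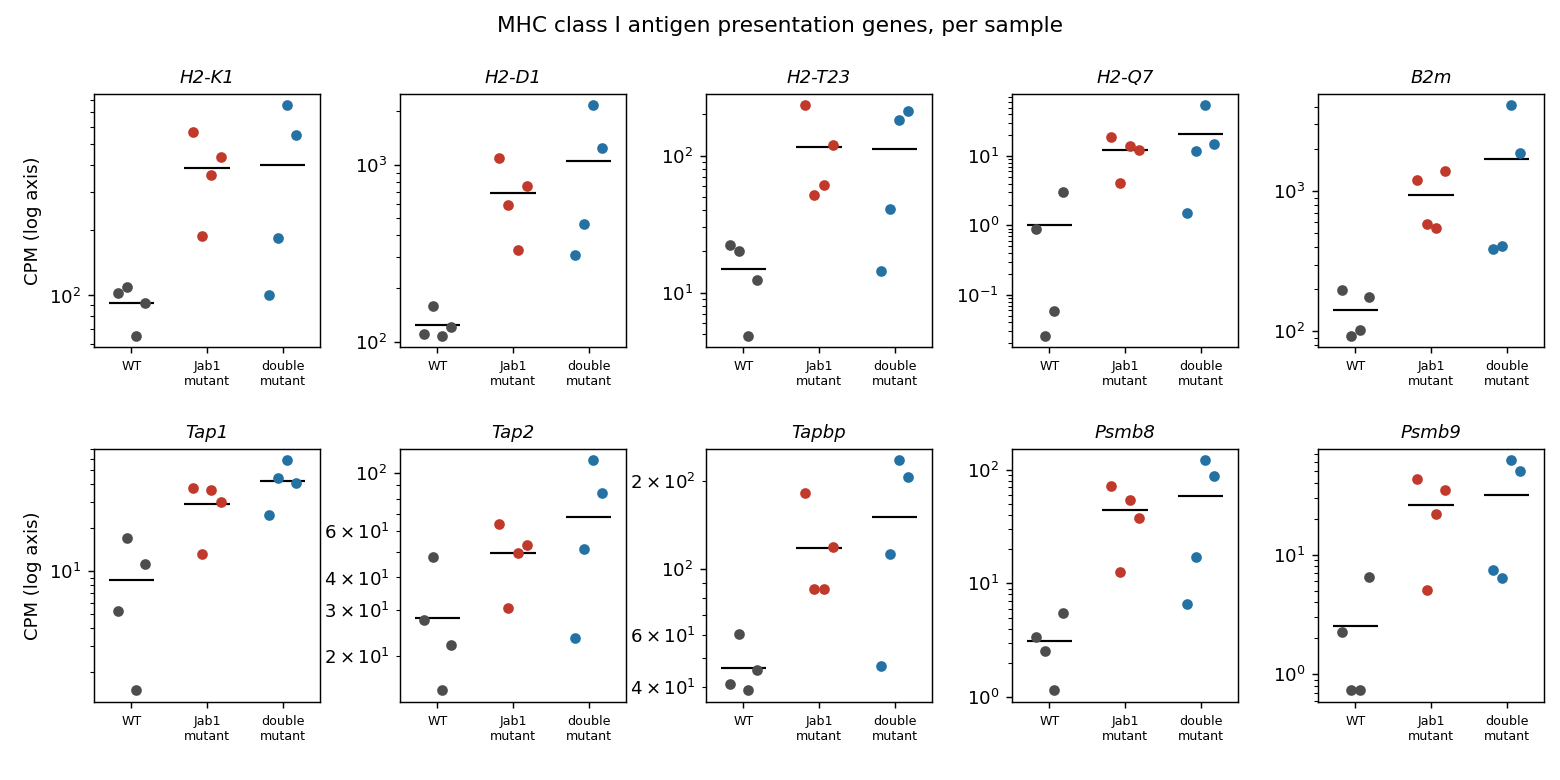
CPM of each of the 10 class I presentation genes in each sample, on a log axis, by genotype (4 samples each; horizontal bars are arithmetic means). Jab1-mutant samples lie above all WT samples for 7 of the genes, and the double mutants spread widely, with B2m between 384 and 4115 CPM.

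Among the heavy chains, the classical molecule H2-K1 was at 103, 109, 65.3 and 92.2 CPM in WT, 565, 189, 359 and 434 CPM in Jab1 mutants, and 101, 185, 756 and 552 CPM in double mutants. No Jab1-mutant sample overlapped WT, whereas 1 double-mutant sample lay inside the WT range. The log2 fold change of H2-K1 in Jab1 mutants against WT was 2.06 ± 0.37 (SE; edgeR adjusted p = 0.00821). H2-D1, the other classical heavy chain, was at 111, 158, 108 and 121 CPM in WT, 1096, 592, 330 and 755 CPM in Jab1 mutants, and 307, 465, 2168 and 1239 CPM in double mutants. Every mutant sample of either genotype exceeded every WT sample. The change of H2-D1 in Jab1 mutants was 2.48 ± 0.39 on the log2 scale (edgeR adjusted p = 0.0047).

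H2-T23, which encodes the non-classical molecule Qa-1 that presents leader peptides of other class I chains, was at 22.2, 20.2, 4.86 and 12.3 CPM in WT, 233, 51.3, 61.3 and 120 CPM in Jab1 mutants, and 14.4, 40.5, 181 and 210 CPM in double mutants. Jab1 mutants did not overlap WT, and double mutants did. Its log2 fold change in Jab1 mutants was 2.96 ± 0.59 (edgeR adjusted p = 0.0130). H2-Q7, a Qa-2 heavy chain, was at 0.888, 0.0258, 0.0593 and 3.02 CPM in WT, 19.1, 4.09, 13.9 and 12.1 CPM in Jab1 mutants, and 1.53, 11.99, 54.1 and 14.8 CPM in double mutants. Jab1 mutants lay above WT in all samples, and the fitted change of 3.62 ± 1.26 did not pass (edgeR adjusted p = 0.112).

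B2m encodes the light chain that every class I heavy chain needs to reach the surface. It was at 198, 93.4, 103 and 175 CPM in WT, 1203, 588, 547 and 1402 CPM in Jab1 mutants, and 384, 404, 4115 and 1871 CPM in double mutants. Both mutants exceeded WT in every sample, and double-mutant replicates 1 and 2 lay below all Jab1-mutant samples while replicates 3 and 5 lay above them. The log2 fold change in Jab1 mutants was 2.72 ± 0.43 (edgeR adjusted p = 0.00502), a 6.58-fold difference. B2m has no 50-base word in common with another gene, so this value does not rest on how shared reads were counted.

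In Jab1 mutants against WT, the transporter genes and Tapbp had the smallest fitted changes of the set. Tap1 was at 5.26, 16.9, 1.48 and 11.1 CPM in WT, 38.0, 13.2, 36.4 and 30.1 CPM in Jab1 mutants, and 24.5, 44.1, 59.0 and 40.8 CPM in double mutants. Jab1-mutant replicate 2 lay inside the WT range, while all double-mutant samples lay above it. Tap2 was at 27.5, 47.9, 14.8 and 22.1 CPM in WT, 64.2, 30.7, 49.5 and 53.4 CPM in Jab1 mutants, and 23.4, 51.5, 112 and 84.4 CPM in double mutants, overlapping in both comparisons. The fitted log2 changes in Jab1 mutants were 1.76 ± 0.65 for Tap1 (edgeR adjusted p = 0.131) and 0.82 ± 0.39 for Tap2 (edgeR adjusted p = 0.248), and neither passed. DESeq2 called 9 of the 10 genes, all but Tap2, beside 9.61% of all genes that it called higher. Tapbp, the chaperone that holds the empty heavy chain at the transporter, was at 40.9, 60.2, 38.8 and 45.7 CPM in WT, 182, 85.9, 86.0 and 119 CPM in Jab1 mutants, and 47.2, 113, 235 and 206 CPM in double mutants. Jab1 mutants did not overlap WT, and the change of 1.35 ± 0.32 passed (edgeR adjusted p = 0.0291), with the uncertainty from the antisense gene named above.

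Psmb8 and Psmb9 encode catalytic subunits that replace their constitutive counterparts Psmb5 and Psmb6 in the immunoproteasome, whose cleavage favours peptides that fit class I. Psmb8 was at 3.35, 2.56, 1.15 and 5.54 CPM in WT, 71.7, 12.6, 54.2 and 37.8 CPM in Jab1 mutants, and 6.65, 17.2, 121 and 87.97 CPM in double mutants, and neither mutant overlapped WT. Its log2 fold change in Jab1 mutants was 3.81 ± 0.63 (edgeR adjusted p = 0.0065). Psmb9 was at 2.26, 0.737, 0.732 and 6.51 CPM in WT, 42.8, 5.06, 22.1 and 35.04 CPM in Jab1 mutants, and 7.49, 6.36, 62.3 and 50.9 CPM in double mutants. One Jab1-mutant and one double-mutant sample fell below the highest WT sample, and the change in Jab1 mutants was 3.36 ± 0.86 (edgeR adjusted p = 0.0372). The calls of Tapbp and Psmb9 were the least firm. Psmb9 lost its call when WT replicate 1, 3 or 5 or Jab1-mutant replicate 1, 3 or 4 was left out (adjusted p up to 0.0973), and Tapbp when WT replicate 1, 5 or 6 or Jab1-mutant replicate 1 or 4 was left out (adjusted p up to 0.0871).

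**Figure D2:**
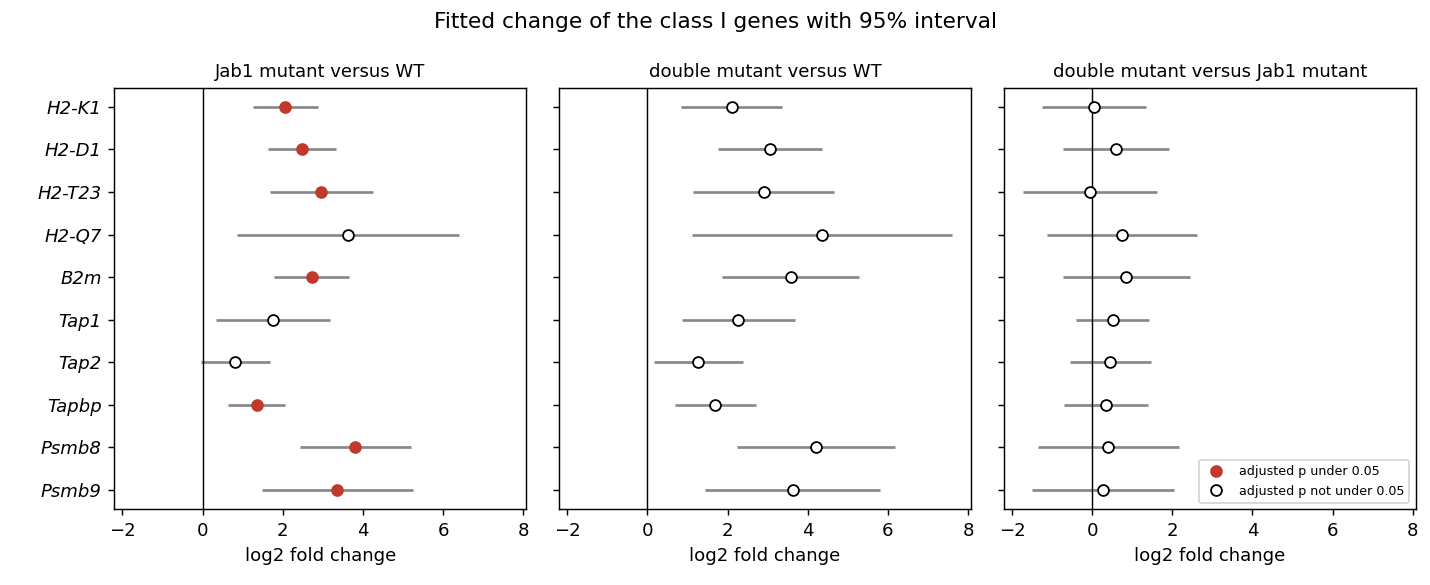
Fitted log2 fold change (points) with 95% interval (lines) of the 10 genes in the 3 comparisons, red where the edgeR adjusted p was under 0.05. Of the 10 genes, 7 are red in Jab1 mutants against WT and none in the other comparisons, and the intervals of double mutants against Jab1 mutants all include 0.

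The constitutive subunits were not called. Psmb5, Psmb6 and Psmb7 had log2 fold changes of -0.16, 0.27 and -0.45 in Jab1 mutants against WT, and edgeR called none of the 3 (0 at an unadjusted p under 0.05). The balance between the subunits was read as a ratio of counts per kilobase within each sample. Psmb8 stood at 1.40, 2.73, 0.573 and 2.99 percent of Psmb5 in WT, 40.8, 6.10, 38.9 and 31.1 percent in Jab1 mutants, and 2.53, 12.7, 68.5 and 27.6 percent in double mutants. Jab1 mutants did not overlap WT, and the mean log2 ratio differed by 3.87 (p = 0.0286 in an exact permutation test, two-sided, which cannot give a smaller value with 4 against 4 samples; adjusted p = 0.114 over the 6 ratio tests). Psmb9 stood at 0.354, 0.307, 0.111 and 1.23 percent of Psmb6 in WT, 8.65, 0.634, 4.59 and 4.94 percent in Jab1 mutants, and 1.04, 1.64, 9.57 and 5.45 percent in double mutants. The mean log2 ratio of Psmb9 over Psmb6 differed from WT by 3.26 in Jab1 mutants and by 3.14 in double mutants (exact p = 0.0571 and adjusted p = 0.114 for each). For Psmb8 over Psmb5 in double mutants the difference from WT was 3.30 (exact p = 0.0857; adjusted p = 0.129), and between the mutants the differences were -0.58 and -0.12 (exact p = 0.629 and 1). None of the 6 ratio comparisons passed after adjustment. An adjusted p under 0.05 would have needed the smallest exact p in at least 4 of them.

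**Figure D3:**
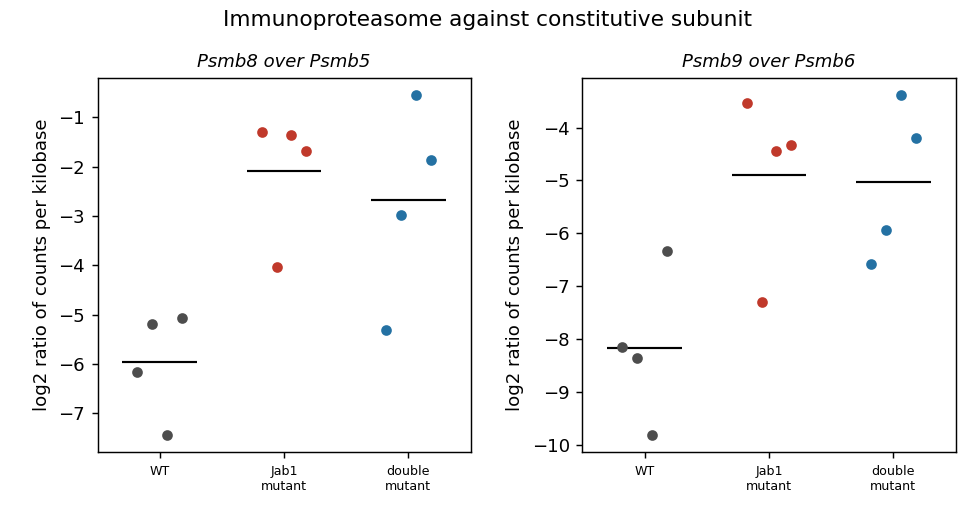
log2 ratio of counts per kilobase of an immunoproteasome subunit over the constitutive subunit it replaces, per sample (points) with the mean (bars), for Psmb8 over Psmb5 and Psmb9 over Psmb6. For Psmb8, all Jab1-mutant samples lie above all WT samples, with replicate 2 at -4.04 apart from the other Jab1 mutants.

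Summed markers of microglia and of vessel and blood cells were also higher in every Jab1-mutant sample than in every WT sample. The 20 microglia markers summed to 143 to 351 CPM in WT, 1355 to 3506 CPM in Jab1 mutants, and 529, 1098, 23158 and 2585 CPM in double-mutant replicates 1, 2, 3 and 5. Of the 20, 18 were called higher in Jab1 mutants against WT, beside 5.19% of all genes. In double mutants against WT edgeR called 0 of the 20, beside 0.175% of all genes called higher. At an unadjusted p under 0.05, 19 were higher there, beside 7.82% of all genes. The 10 endothelial markers summed to 427 to 992 CPM in WT and to 7352, 1013, 3165 and 5316 CPM in Jab1 mutants. In double mutants they summed to 804, 988, 4471 and 7973 CPM. In Jab1 mutants 7 of 10 were called higher, beside the same 5.19% of all genes. The 8 markers of mural cells, the pericytes and smooth muscle cells of vessel walls, summed to 277 to 477 CPM in WT. They summed to 969 to 1721 CPM in Jab1 mutants, and 294, 762, 1391 and 1657 CPM in double mutants. In Jab1 mutants 4 of 8 were called higher, beside the same 5.19% of all genes. Ptprc, which encodes CD45, was at 0 to 1.53 CPM in WT, 31.7 to 107 CPM in Jab1 mutants and 3.11 to 101 CPM in double mutants, although the sort gate excluded CD45+ cells. The 8 neutrophil or monocyte markers summed to 1.22 to 3.59 CPM in WT, 51.9 to 129 CPM in Jab1 mutants and 8.33 to 189 CPM in double mutants, so neither mutant overlapped WT. In Jab1 mutants this sum rested mainly on Csf3r, which averaged 70.2 CPM of a mean sum of 80.8 CPM. Ly6c2 averaged 8.56 CPM there, and S100a8 and S100a9 were at 0. The sum alone therefore does not show that neutrophils or monocytes were present. The 10 T or NK cell markers summed to 0.0433 to 0.717 CPM in WT, 1.58 to 25.1 CPM in Jab1 mutants and 0.555 to 13.4 CPM in double mutants, and only the Jab1 mutants lay above WT in every sample. The neutrophil or monocyte list and the T or NK list each had 2 genes that passed the filter. In each, 1 was called higher in Jab1 mutants, beside the same 5.19% of all genes. The part of these cells in the class I values was not tested.

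Single samples can be read beside those sums. Double-mutant replicate 1 had endothelial and mural sums inside the WT range and the lowest microglia sum of the mutants, which at 529 CPM was still above the highest WT value of 351 CPM, and its neutrophil or monocyte and T or NK sums were above WT too. In it B2m (384 CPM), H2-D1 (307 CPM), Tap1 (24.5 CPM), Psmb8 (6.65 CPM) and Psmb9 (7.49 CPM) were above all WT samples while H2-K1, H2-T23, H2-Q7, Tap2 and Tapbp were inside the WT range. Jab1-mutant replicate 2 had an endothelial sum of 1013 CPM, next to the highest WT value of 992 CPM, but microglia markers at 1355 CPM and mural markers at 969 CPM, both above all WT samples. There H2-K1, H2-D1, H2-T23, H2-Q7, B2m, Tapbp and Psmb8 were above all WT samples, while Tap1 (13.2 CPM), Tap2 (30.7 CPM) and Psmb9 (5.06 CPM) were inside the WT range. Double-mutant replicate 3 had the highest microglia sum and the highest CPM of 9 of the 10 genes, H2-T23 being the exception. The 11 mature oligodendrocyte markers summed to 45742 to 106607 CPM in WT, 9045 to 35428 CPM in Jab1 mutants and 16950 to 53038 CPM in double mutants. Of the 11, 7 were called lower in Jab1 mutants, beside 435 of all 17716 genes. The list includes Cnp, the gene that the Cre is expressed from, which averaged 7522 CPM in WT and 781 CPM in Jab1 mutants. In bulk RNA, fewer cells of a type and less RNA per cell cannot be told apart.

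**Figure D4:**
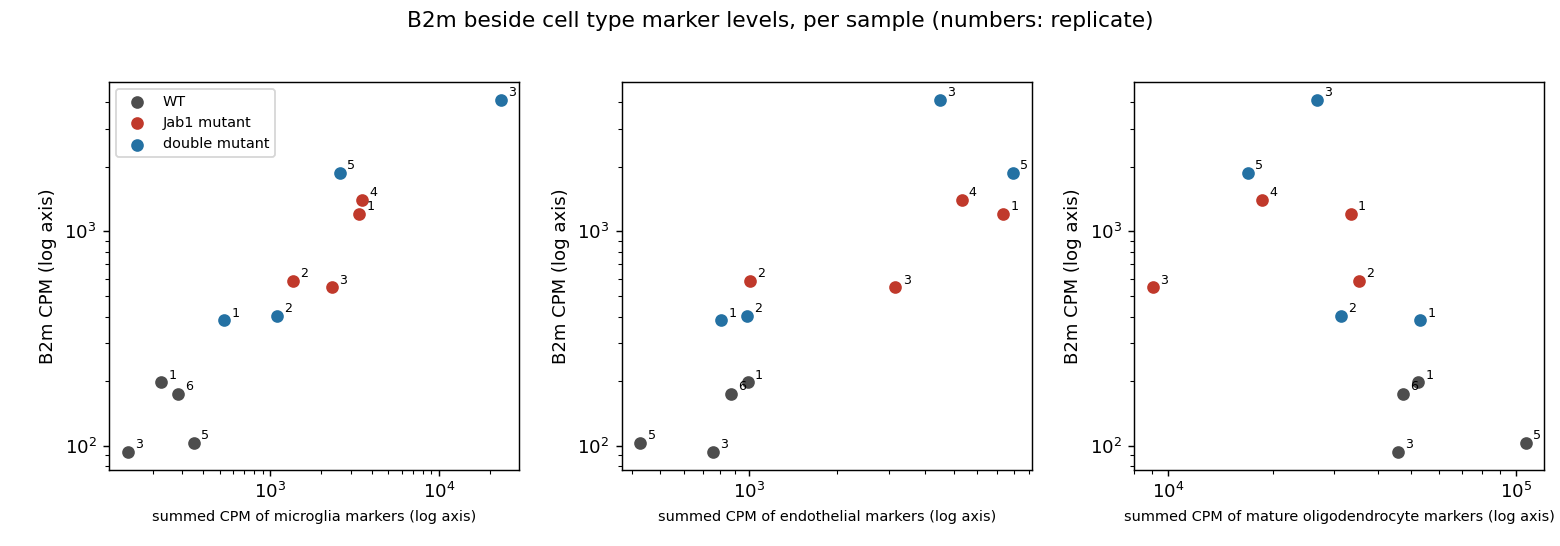
B2m CPM against the summed CPM of microglia, endothelial and mature oligodendrocyte markers in each of the 12 samples (log axes; numbers are replicates). WT samples sit lowest on B2m, at 93.4 to 198 CPM, and double-mutant replicate 3 stands apart at 23158 CPM of microglia markers and 4115 CPM of B2m.

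In double mutants against WT, the fitted level of all 10 genes was higher, but edgeR called none of them (lowest adjusted p = 0.0803, for H2-D1), beside 0.175% of all genes called higher. At an unadjusted p under 0.05 all 10 were higher, beside 7.82% of all genes, and samples did not overlap for 4 (H2-D1, B2m, Tap1 and Psmb8), beside 4.52% of all genes. DESeq2 called 9 of the 10, all but Tap2, beside 3.80% of all genes that it called higher, and limma-voom called 1, H2-D1, beside 0.214%. The count rested on double-mutant replicate 1, the lowest of the double mutants for 9 of the 10 genes: without it, edgeR called 6 (H2-K1, H2-D1, H2-T23, B2m, Tapbp and Psmb8), beside 1.14% of all genes called higher in that fit, and without replicate 3 it called 0, beside 0.0395%. The median log2 fold change was 2.98, against 0.00 over all genes.

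By role, the double-mutant changes against WT on the log2 scale were 2.10 ± 0.57 (SE) for H2-K1, 3.06 ± 0.59 for H2-D1, 2.90 ± 0.80 for H2-T23 and 4.36 ± 1.47 for H2-Q7 among heavy chains. The light chain gene B2m had 3.57 ± 0.77. The transporter genes had 2.27 ± 0.64 (Tap1) and 1.27 ± 0.50 (Tap2), and the loading factor Tapbp had 1.69 ± 0.46. The immunoproteasome genes had 4.2 ± 0.90 (Psmb8) and 3.63 ± 0.99 (Psmb9). None of these passed in edgeR, and their standard errors were larger than in Jab1 mutants for 9 of the 10 genes, Tap1 being the exception.

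Double mutants were then set against Jab1 mutants. edgeR called 0 of the 10, with 0 at an unadjusted p under 0.05 and 0 without overlap, beside 0% of all genes by adjusted p, 1.75% higher and 3.25% lower by unadjusted p, and 1.22% higher and 1.99% lower without overlap. DESeq2 called 0 of the 10 too, beside 0.115% of all genes higher and 0.384% lower, and limma-voom 0, beside 0% higher and 0.00564% lower. Fitted differences ran from -0.06 (H2-T23) to 0.86 (B2m) on the log2 scale, with a median of 0.43 over the 10 genes and 0.02 over all genes. The 95% intervals were wide, at -0.73 to 2.45 for B2m, -0.73 to 1.91 for H2-D1, -1.26 to 1.34 for H2-K1, -1.73 to 1.61 for H2-T23, -1.13 to 2.62 for H2-Q7, -1.36 to 2.16 for Psmb8 and -1.51 to 2.05 for Psmb9. The narrowest belonged to the transporter genes, at -0.39 to 1.43 for Tap1 and -0.55 to 1.46 for Tap2, and Tapbp had -0.71 to 1.40. These data therefore do not show that the mutants have equal class I levels, nor that they differ. Without double-mutant replicate 3, the fitted difference turned negative for 6 genes, from -0.03 (H2-D1) to -0.45 (H2-K1).

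Replicates of one genotype differed widely. The highest double-mutant sample exceeded the lowest by 10.7-fold for B2m, 18.2-fold for Psmb8 and 14.6-fold for H2-T23, against 2.56-fold, 5.70-fold and 4.55-fold in Jab1 mutants and 2.11-fold, 4.83-fold and 4.58-fold in WT. The level of the set in a sample was summarised as the mean z-score of log2(CPM + 1) over the 10 genes. It was -0.95, -0.82, -1.53 and -0.80 in WT, 0.98, -0.13, 0.38 and 0.66 in Jab1 mutants, and -0.55, 0.16, 1.49 and 1.10 in double mutants. Among the 45 pairs of members, Pearson's r over the 12 samples ran from 0.76 to 0.98 with a median of 0.90. With each genotype's mean subtracted, so that only variation within genotypes is left, r ran from 0.30 to 0.96 with a median of 0.82. These correlations describe 12 samples that share their genotypes and their mixtures of cells.

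The genes whose pattern was most like the set's mean z-score over the 12 samples, among 17706 others, were Bst2 (r = 0.984), Rtp4 (0.978), Ucp2 (0.978), Cyba (0.976) and Capg (0.972). With genotype means subtracted they were Bst2 (r = 0.975), Slc31a1 (0.973), Ocln (0.972), Tbx1 (0.963) and Il10rb (0.960). Bst2 led in both. It encodes tetherin, an interferon-induced membrane protein, and Rtp4 is interferon-induced as well, while Cyba encodes a subunit of the phagocyte NADPH oxidase and Ocln the tight junction protein occludin. The values are ranks of likeness over 12 samples and carry no test.

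The other genes of the class I pathway were taken from a list of 35, of which 28 passed the filter and were tested. In Jab1 mutants against WT, edgeR called 9 of the 28 higher and 0 lower, beside the 5.19% of all genes called higher. At an unadjusted p under 0.05 the counts were 13 and 0, beside 13.2% of all genes higher. DESeq2 called 11, beside the 9.61% of all genes that it called higher. The median log2 fold change of the 28 was 0.82. All 3 partners of the immunoproteasome were called: Psmb10, the third inducible catalytic subunit, by 1.48 ± 0.28, and the proteasome activator subunits Psme1 and Psme2 by 1.92 ± 0.34 and 1.54 ± 0.34. Psmb10 was at 19.4 to 29.2 CPM in WT and 49.3 to 75.3 CPM in Jab1 mutants. The genotypes did not overlap for any of the 3.

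Of the 7 regulators of class I transcription, 3 were called in Jab1 mutants. Nlrc5, the class I transactivator, was at 0.970, 6.07, 2.58 and 0.347 CPM in WT, 21.1, 9.30, 34.0 and 19.3 CPM in Jab1 mutants, and 10.2, 15.5, 4.32 and 6.49 CPM in double mutants. Jab1 mutants did not overlap WT, and the double mutants did. Its log2 fold change was 3.07 ± 0.82 in Jab1 mutants (edgeR adjusted p = 0.0447). Against WT in double mutants it was 1.86 ± 0.86 (adjusted p = 0.417), and between the mutants -1.20 ± 0.55 (unadjusted p = 0.0538; adjusted p = 0.968). Double-mutant replicate 3, the sample highest in 9 of the 10 members, was the lowest of its genotype for Nlrc5. Irf2 and Irf9, interferon regulatory factors, were the other regulators called, by 1.83 ± 0.34 and 2.08 ± 0.35. Irf1 had 1.40 ± 0.51 in Jab1 mutants and did not pass (edgeR adjusted p = 0.126). The RFX subunits that bind the X box, Rfx5, Rfxank and Rfxap, had -0.43, -0.30 and 0.10 and did not pass.

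Of the 4 interferon receptor genes 1 was called in Jab1 mutants, Ifnar2, by 1.14 ± 0.29. The 2 interferon genes on the list did not pass the filter: Ifnb1 had a count of 0 in all 12 samples and Ifng had 42 counts in 1 WT sample and 0 in the other 11. Among 5 other heavy chains tested, H2-Q4 and H2-Q6 were called, by 4.41 ± 1.17 and 5.78 ± 1.57. In WT they averaged 0.081 and 0.33 CPM, with medians of 0.072 and 0.019 CPM. Both passed the filter through the mutant samples, where they are high, so their calls are not independent of the filter. H2-Q4 and H2-Q6 are included in the pathway count above. The regulator Nlrc5 and the members H2-Q7 and Psmb9 were also under 1 CPM in some WT samples and needed mutant samples to pass. The same limit from the filter applies to them. H2-Q6 is also subject to the same limit on shared reads as H2-Q7. None of the 5 general loading and trimming genes (Tapbpl, Calr, Canx, Pdia3, Erap1) was called by edgeR, and none reached an unadjusted p under 0.05. Their fitted changes were -0.38 to 0.82.

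**Figure D5:**
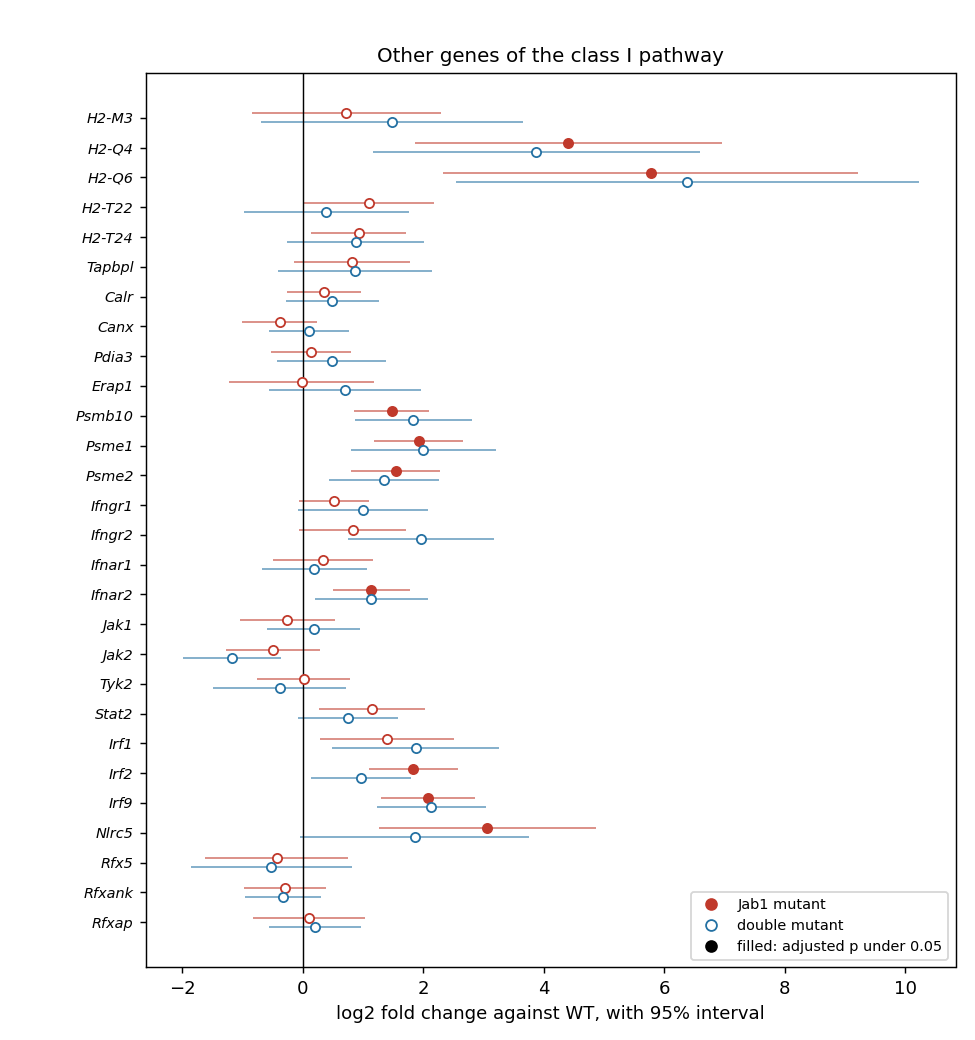
log2 fold change against WT (points) with 95% interval (lines) of the 28 other pathway genes tested, in Jab1 mutants (red) and double mutants (blue), filled where the edgeR adjusted p was under 0.05. The 9 filled points are all of Jab1 mutants and include Nlrc5, Psmb10, Psme1 and Psme2. Points of the loading and trimming genes are not filled and lie at -0.38 to 0.82 in Jab1 mutants and 0.10 to 0.86 in double mutants.

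In double mutants against WT, edgeR called 0 of the 28 pathway genes, beside 0.175% of all genes called higher. At an unadjusted p under 0.05, 10 were higher, beside 7.82% of all genes, and 1 was lower, beside 809 of all 17716 genes. DESeq2 called 8, beside 3.80% of all genes that it called higher, and limma-voom 1, beside 0.214%. Psmb10, Psme1 and Psme2 had log2 changes of 1.84 ± 0.44, 2.01 ± 0.55 and 1.35 ± 0.41, Irf9 had 2.14 ± 0.41, and the samples of these 4 genes did not overlap WT. Of the 28 genes, 6 lay above WT without overlap, beside 4.52% of all genes. The 1 gene lower at an unadjusted p was Jak2, at -1.17 ± 0.37. Between double and Jab1 mutants, edgeR called 0 of the 28 with 0 at an unadjusted p under 0.05, and DESeq2 and limma-voom called 0.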

How the data were processed

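The deposited table holds raw counts per gene symbol, which the authors made from paired-end SMART-Seq v4 libraries by trimming with Trimmomatic 0.32, aligning to GRCm38 with STAR 2.5.3a and counting with featureCounts on a GENCODE basic annotation. Genotypes and replicate numbers came from the labels. CPM were computed with TMM factors over the 12 samples. The filter kept the 17716 of 55376 genes that reached 1 CPM in 4 or more of the 12 samples, and these were tested with edgeR 4.0.16 (R 4.3.3, quasi-likelihood, 8 samples per comparison, Benjamini-Hochberg over all genes tested, threshold 0.05). Alternatives were DESeq2 1.42.0, limma-voom (limma 3.58.1), other size factors, other filters, all 12 samples in one fit, a replicate block, the samples with shared numbers only, each sample left out, and for ratios a pseudocount of 1 CPM. The 10 genes and all lists were chosen with earlier results of these data known. Named genes were the 10, pathway genes called in any comparison with Nlrc5, Irf1, Psmb10, Psme1 and Psme2, and the 5 most alike by each measure. One gene of the pathway list is not reported here and was left out of that list's counts. Jak2 and other pathway genes were named after their values were seen. Methods were tested on simulated data. Lengths and positions came from GENCODE M21. Samples were 61485556 to 153495112 counts deep, so counting error was small beside the spread between samples for most genes. Samples of one genotype differed by at least 211 in chi-square per degree of freedom, so none was a repeat.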

Additional observations from a re-analysis of the deposited data

Results flagged for a closer look

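Of 75 groups of 4 samples examined (class I and pathway genes, marker sums and ratios), 5 had 1 sample far from the other 3, where chance gives about 1 in 20. The value is the gap to the nearest sample as a share of the group's range. For H2-Q6 in WT it was 0.985, with 1.28 CPM in 1 sample and 0 to 0.0198 CPM in the others, and in double mutants it was 0.862, with 79.99 CPM against 6.47 to 16.6 CPM. The microglia marker sum in double mutants gave 0.909, with 23158 CPM in replicate 3 against 529 to 2585 CPM. The mature oligodendrocyte marker sum in WT gave 0.891, with 106607 CPM in replicate 5 against 45742 to 52387 CPM. The log2 ratio of Psmb8 over Psmb5 in Jab1 mutants gave 0.857, with -4.04 in replicate 2 against -1.69 to -1.29. What sets these samples apart was not tested.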

How the results depend on the processing

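In Jab1 mutants against WT, all 10 genes stayed higher under each of the 16 alternatives, and the number called was 5 to 9, against 7, in all but 1 of them. The number of other pathway genes called, 9, fell to 5 with no filter on low counts, to 1 with the replicate block, and ranged from 4 to 9 with 1 sample left out. In double mutants against WT, all 10 genes stayed higher under each of the 15 alternatives, but the number called depended on the method. Against 0 class I genes and 0 other pathway genes called, DESeq2 called 9 and 8, limma-voom with sample quality weights 1 and 1, a mean of at least 10 CPM gave 3 and 1, all 12 samples in one fit gave 3 and 2, and leaving out 1 sample gave 0 to 6 and 0 to 2. Those with calls after leaving out a sample came from leaving out double-mutant replicate 1. Over all genes tested, DESeq2 called 663 higher in this comparison and edgeR 31. The cause was not tested.

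In double against Jab1 mutants no alternative called any of the 10, and the fitted direction changed with the setting. With limma-voom H2-K1, H2-Q7, Psmb8 and Psmb9 turned to -0.40, -0.091, -0.35 and -0.23, and with the replicate block H2-K1, Psmb8 and Psmb9 turned to -0.43, -0.40 and -0.14. With 1 sample left out the ranges were -0.45 to 0.38 for H2-K1, -0.029 to 0.91 for H2-D1, -0.56 to 0.54 for H2-T23, -0.37 to 1.15 for H2-Q7, -0.058 to 1.198 for B2m, -0.22 to 0.80 for Psmb8 and -0.26 to 0.63 for Psmb9, and the difference in log2 ratio was -1.28 to 0.30 for Psmb8 over Psmb5 and -0.92 to 0.40 for Psmb9 over Psmb6. Tap1, Tap2 and Tapbp stayed above 0 in all 15. A pseudocount of 1 CPM kept the direction and the side of the threshold of all 6 ratio comparisons. With 1 sample left out the exact permutation test of a ratio cannot go below p = 0.0571.

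The labels do not say whether same-numbered samples of different genotypes share anything beyond the number. Correlations of their deviations lay between -0.19 and 0.083. Only replicates 1 and 3 occur in both WT and Jab1 mutants, so the fit with the replicate block rests on 2 samples per genotype for the difference, with 1 residual degree of freedom, and it called 5 class I genes and 1 other pathway gene. The same 4 samples without the block, an alternative chosen after seeing the data, gave 2 (Psmb8 and Psmb9) and 0. These fits differ in samples and in residual degrees of freedom. What the block itself changes was not tested. The limits are 4 samples per genotype, pairs of brains pooled in each sample, marker transcripts of other cells that move with genotype, and heavy chains that share sequence. H2-Q7, at 4 and 6 counts in WT replicates 3 and 5, is limited by counting as well.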
